A study of Mus musculus with 30 samples.

Results

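The genes described here are 32 mouse genes of the ER protein-folding machinery and the unfolded protein response, chosen by name and matched to the deposited Ensembl identifiers. All 32 were found among the 49089 identifiers, and 31 passed the filter on low counts that left 11368 genes. The exception was Derl3, a degradation factor of secretory cells, with 2 counts in the 30 libraries together. They were followed by RNA-seq in 30 samples of AML12, a mouse hepatocyte line, in which FoxK1 and FoxK2, Forkhead transcription factors that move in response to insulin, had been depleted by transient transfection of siRNA. The 8 groups were Control, FoxK1 KD, FoxK2 KD and DKD (both factors depleted), each without insulin (basal) or with 100 nM insulin for 6 h, after a night without serum in every group. There were 4 replicates in a group, and 3 in the Control and DKD groups with insulin. The labels call the basal samples untreated at 0 h, while the treatment description calls them mock treated. The labels do not say whether the replicates came from separate cultures, and the study's methods define N as animals or independent experiments without naming the RNA-seq. The p-values measure the spread between these samples.

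The endoplasmic reticulum folds and modifies secreted and membrane proteins, and hepatocytes secrete most of the proteins of plasma. Unfolded proteins there activate the sensors IRE1 (Ern1), PERK (Eif2ak3) and ATF6. IRE1 splices the mRNA of the transcription factor XBP1, PERK phosphorylates eIF2α and so favours translation of ATF4, and ATF6 is cut by Golgi proteases into a transcription factor. Their common targets are chaperones such as BiP (Hspa5), disulfide isomerases and the factors that return misfolded proteins to the cytosol for degradation. Gene counts of this kind do not separate spliced from unspliced Xbp1 mRNA and carry nothing on phosphorylation or cleavage.

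Between 2141460 and 5668270 reads per library were counted on genes. Levels are given as CPM, counts scaled to a common library size with TMM factors, and differences as log2 fold changes from edgeR's quasi-likelihood model of all 30 samples. A gene was called when its Benjamini-Hochberg adjusted p-value over the 11368 genes was below 0.05, with no minimum fold change. Foxk1 was at 66.2 to 88.4 CPM in basal Control and 27.4 to 42.0 CPM in basal FoxK1 KD cells (log2 fold change -1.14). Foxk2 was at 133 to 149.7 CPM in basal Control and 42.9 to 50.6 CPM in basal FoxK2 KD cells (-1.57). The targets lay below every Control library in both states in their own knockdown and in DKD cells, and Foxk2 also did so in FoxK1 KD cells (101 to 128 CPM at basal). Of 8 hepatocyte markers, Hnf4a (89.6 to 151.6 CPM), Krt8 and Krt18 were high, Alb, Ttr and Trf low, and Apoa1 and Apoe near 0. The 14 fibroblast, immune and endothelial markers were at most 2.96 CPM in any library (Cd68). Of the cholangiocyte markers listed, Krt19 stood at 323 to 753 CPM. Values of Krt7, Epcam and Sox9 are not given here, so no cell type is read from Krt19. In bulk samples, fewer cells expressing a gene and less RNA per cell cannot be told apart.

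Some libraries stood apart. On the first principal component of all tested genes (26.9% of the variance of log2-CPM), the 12 basal libraries of Control, FoxK1 KD and FoxK2 KD cells scored 15.4 to 23.9, the 4 basal DKD libraries 7.55 to 8.48 and the 14 insulin libraries -22.6 to -14.4. On the second (11.7%), basal DKD scored 16.4 to 27.1, and replicate 1 of basal Control stood with them at 22, while its 3 companions were at -9.83 to -7.54. Where leaving out this replicate changed a call of the 31 genes, or moved a called value of theirs by over 1.5 times, the value without it is given beside the result. For the genes of the comparison lists such values are not given. Between the 12 basal libraries and the other 18 (basal DKD and insulin), 52 of the 11368 tested genes were lower and 83 higher in each of the 12. Of the 31 genes described here 0 were among them, which is near that small share and says nothing particular about the 31. The 52 and 83 genes were found by that separation, so they are a description only. Summed CPM over all 251 tested pseudogenes, of which 10 were among the 52, overlapped (2251 to 2670.0 in the 12, 2189 to 2711 in the 18). No label names a batch, and a difference in handling of such libraries cannot be told apart from insulin or from DKD.

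Per kb of exon, the levels of these genes in basal Control cells spanned from 594 ± 30.9 (P4hb, a protein disulfide isomerase) to 0.805 ± 0.311 CPM per kb (Ero1lb, an oxidase of the pancreas; SD, n = 4). The lectin chaperones Canx and Calr followed P4hb at 336 ± 46.8 and 320 ± 56.7 CPM per kb, within their spread of each other. Pdia3, their partner isomerase, was at 221 ± 25.8, Hspa5 at 107 ± 4.55 and Hsp90b1 at 92.9 ± 7.50 CPM per kb. These 6 exceeded at least 96% of the tested genes. The sensors were far lower, with Ern1 at 5.04 ± 1.38, Atf6 at 6.28 ± 1.25 and Eif2ak3 at 24.9 ± 3.63 CPM per kb, and Ern1 and Atf6 within their spread of each other. Exons of 11 of the genes are overlapped by another annotated gene, by 10% or more in Ppib (Snx22 on the opposite strand) and Hsp90b1, so the counts of these 2 are less certain because the strand setting of the counting is not given.

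Most of these genes were higher after insulin in every genotype. In Control cells 19 of 31 were called higher, against 12.4% of all tested genes, and 2 lower, against 13.1%. In FoxK1 KD cells the counts were 19 higher (all genes 16.2%) and 2 lower (15.4%). In FoxK2 KD cells 19 were higher (all genes 14.4%) and 0 lower (13.7%), and in DKD cells 19 were higher (all genes 8.31%) and 0 lower (7.99%). The median log2 fold changes were 0.42 (Control), 0.44 (FoxK1 KD), 0.51 (FoxK2 KD) and 0.39 (DKD), an order of genotypes kept below. Over all genes the insulin effects also followed GC content, unequally and with the opposite sign in DKD cells. Spearman's rho was 0.0762, 0.326, 0.241 and -0.211 in that order, over 11346 genes. Every insulin library lay above every basal library for 16 genes in Control (12.5% of all genes), 20 in FoxK1 KD (16%), 20 in FoxK2 KD (15.2%) and 20 in DKD cells (14.3%).

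The 4 insulin effects share no library, and 14 of the 31 genes were called higher in all 4, against 3.66% of all tested genes (416). These were Hspa5, Hsp90b1, Hyou1, Dnajb11, Calr, Pdia3, Pdia4, Pdia6, P4hb, Ero1l, Xbp1, Herpud1, Syvn1 and Edem1. A further 5 were called in 3 genotypes (Dnajc3, Sdf2l1, Creld2, Sec61a1, Sec61b), 1 in 2 (Ppib) and 3 in 1 (Manf, Derl1, Derl2). The 8 called higher in none were Dnajb9, Canx, Ero1lb, Atf6, Ern1, Eif2ak3, Sel1l and Edem2. Of the 14, 10 kept each call whichever single library was left out, and Dnajb11, Herpud1, Pdia3 and Syvn1 lost 1 or more. Fitted on the Control libraries alone, the Control effect had 11 calls, in a fit whose spread rests on 7 samples. Of the 14, Pdia3, Pdia6, Herpud1 and Syvn1 lost their Control call there. Pdia3, P4hb and Edem1 stayed below the 1.5-fold minimum of the study's rule for insulin in all 4 genotypes.

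**Figure D1:**
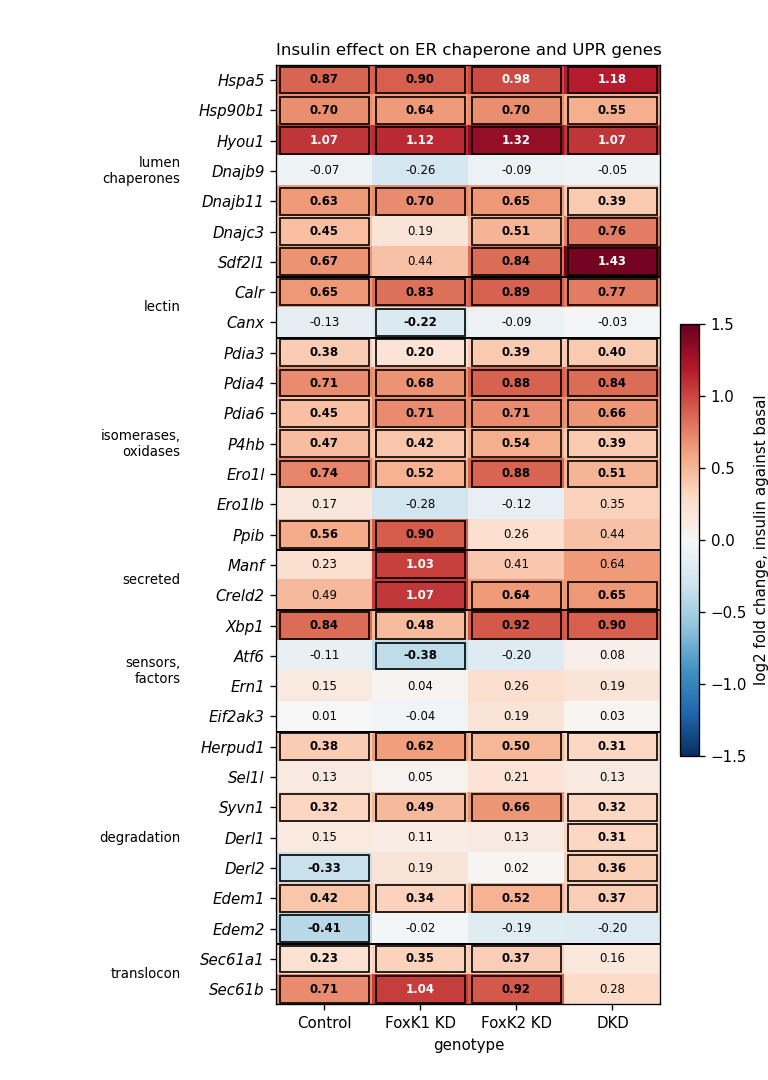
Log2 fold change after insulin of the 31 tested genes (rows, grouped by role) in the 4 genotypes (columns), with red for higher and blue for lower. Boxed bold values were called at an adjusted p below 0.05, and 14 rows are boxed and red in all 4 columns.

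Among the lumenal chaperones, Hspa5 encodes BiP, the HSP70 that binds unfolded chains and holds the stress sensors inactive. It was at 459, 464, 460.2 and 423 CPM in basal Control libraries and at 866, 806 and 803 CPM after insulin. In FoxK1 KD cells it was at 432, 438, 411 and 410.5 CPM at basal and at 745, 758, 815 and 833 CPM after insulin. All insulin libraries stood above all basal libraries, with no overlap in either genotype. FoxK2 KD libraries were at 465, 461, 482 and 477 CPM at basal and 897, 929, 958 and 929 CPM after insulin. DKD libraries were at 401, 423, 435 and 448 CPM at basal and 1031, 979.8 and 893 CPM after insulin. These groups did not overlap either, and the highest basal value of the series (482 CPM, FoxK2 KD) was below the lowest insulin value (745 CPM, FoxK1 KD). The log2 fold changes were 0.87 (SE 0.07, adjusted p = 1.02e-11) in Control and 0.90 (SE 0.06, adjusted p = 2.04e-12) in FoxK1 KD cells. They were 0.98 (SE 0.06, adjusted p = 1.28e-13) in FoxK2 KD and 1.18 (SE 0.07, adjusted p = 1.2e-14) in DKD cells, and in each genotype its p-value was the smallest of these genes.

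Hyou1, an HSP110-type exchange factor for BiP, had the largest rises of the lumenal chaperones in Control, FoxK1 KD and FoxK2 KD cells. Its Control libraries were at 189, 145, 142 and 129 CPM at basal and 299.8, 356 and 295 CPM after insulin. In FoxK2 KD cells the values were 130.0, 133, 139 and 150.1 CPM at basal and 369, 359.8, 338 and 315 CPM after insulin. FoxK1 KD libraries were at 116 to 129 CPM at basal and 250.5 to 306 CPM after insulin, and DKD libraries at 152 to 163 and 307 to 362 CPM. The groups did not overlap in any genotype, and the log2 fold changes were 1.07, 1.12, 1.32 and 1.07 in that order of genotypes (SE 0.10, 0.09, 0.09 and 0.10; largest adjusted p = 6.21e-10).

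Hsp90b1, or GRP94, the HSP90 of the ER, was at 331 to 419.8 CPM over all 16 basal libraries and 563 to 648 CPM over the 14 insulin libraries, again without overlap. Its rise was 0.70 (SE 0.07) in Control, 0.64 in FoxK1 KD, 0.70 in FoxK2 KD and 0.55 in DKD cells on the log2 scale. Dnajb11, a J-domain partner of BiP, was at 52.1 to 73.4, 56.1 to 64.2, 60.4 to 76.9 and 73.6 to 86.7 CPM at basal and at 96.5 to 98.0, 88.5 to 109.9, 103 to 118 and 92.9 to 112 CPM after insulin in that order of genotypes. Its libraries did not overlap within a genotype, and it rose by 0.63, 0.70, 0.65 and 0.39 (log2). Dnajc3, the ER J-protein also known as P58IPK, rose in 3 genotypes (log2 fold change 0.45 in Control, 0.51 in FoxK2 KD and 0.76 in DKD cells), while its value in FoxK1 KD cells was 0.19 (adjusted p = 0.133). Sdf2l1, which works with BiP and Dnajb11, went from 13, 13, 15 and 15 CPM to 32, 38 and 41 CPM in DKD cells. That was the largest insulin effect among the 31 genes (log2 fold change 1.43, SE 0.19, adjusted p = 1.15e-06), and the value in FoxK1 KD cells was 0.44 (adjusted p = 0.0623).

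Dnajb9, or ERdj4, a J-protein known as a target of XBP1, did not follow the other lumenal chaperones. It was at 36.0, 54.8, 56.3 and 56.8 CPM in basal Control libraries and 51.9, 43.0 and 51.9 CPM after insulin. The groups overlapped in all 4 genotypes, with log2 fold changes from -0.26 in FoxK1 KD cells to -0.05 in DKD cells (adjusted p = 0.142 and 0.844). In Control cells the 95% interval of its change was -0.35 to 0.21, which leaves out the rise measured for Hspa5 in the same libraries.

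**Figure D2:**
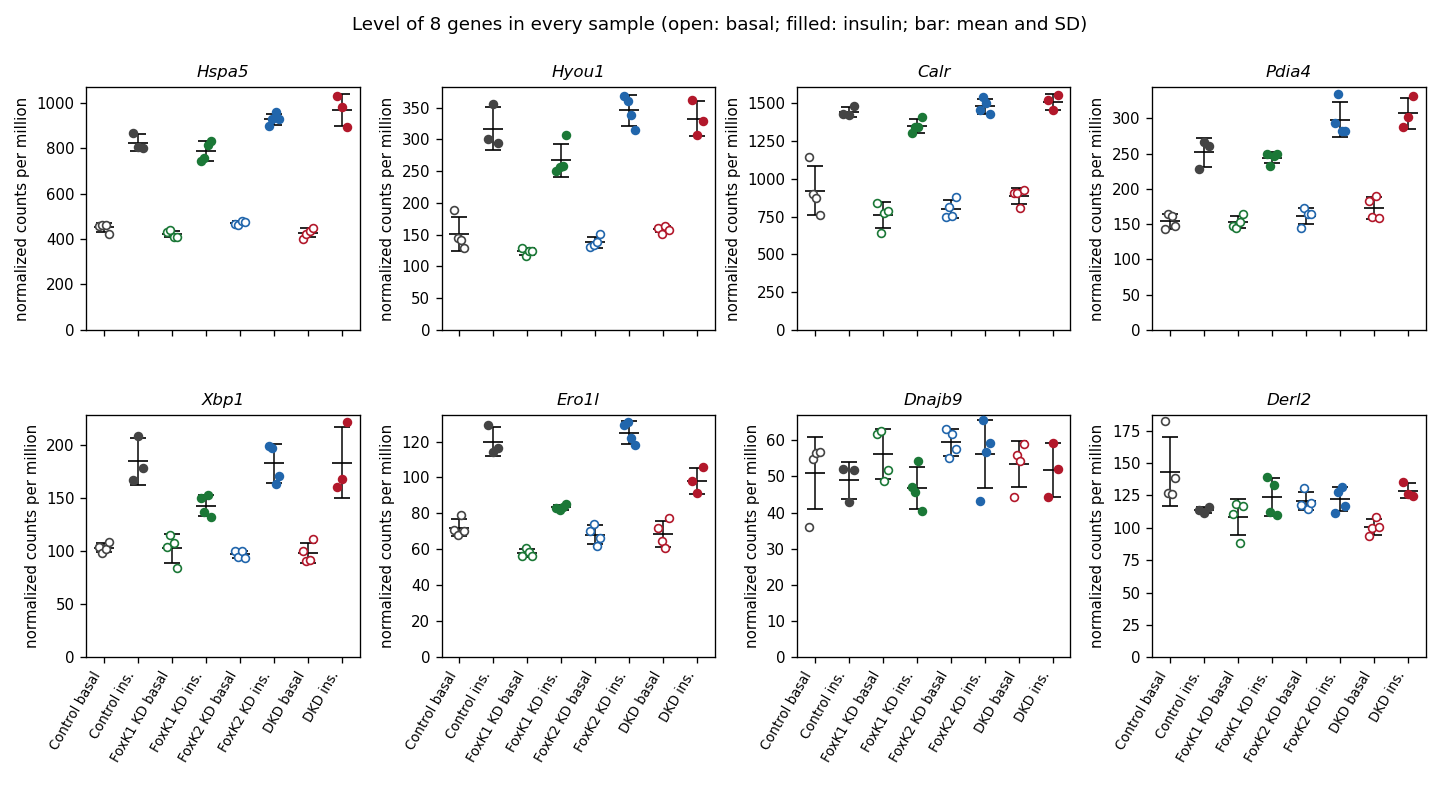
Level in CPM (vertical axes, from 0) of 8 genes in each library, by genotype and treatment (horizontal axis), with open points for basal, filled points for insulin and bars for the mean and SD. Hspa5, Hyou1, Calr, Pdia4, Xbp1 and Ero1l have insulin points above the basal points of their own genotype, while the points of Dnajb9 overlap and those of Derl2 move down in Control and up in DKD cells.

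The lectin chaperones hold glycoproteins by their sugars, calreticulin (Calr) in the lumen and calnexin (Canx) in the membrane, and here they parted. Calr was at 1147, 899.9, 875 and 759.6 CPM in basal Control and 1428, 1423 and 1481 CPM in insulin-treated Control libraries. FoxK1 KD libraries held 837, 641, 776 and 787 CPM at basal and 1304, 1341, 1345 and 1409 CPM after insulin. No insulin library overlapped a basal one in these genotypes, nor in FoxK2 KD (748 to 881 against 1427 to 1539 CPM) and DKD cells (807 to 925 against 1453 to 1555 CPM), and the log2 fold changes were 0.65, 0.83, 0.89 and 0.77 (SE 0.09 in each; largest adjusted p = 3e-06). Canx was at 1806, 1668, 1536 and 1291 CPM in basal Control and 1443, 1469 and 1405 CPM in insulin-treated Control libraries, which overlapped. It was called in FoxK1 KD cells, where it fell from 1356, 1347, 1483 and 1614 CPM to 1272, 1206, 1247 and 1257 CPM, by 0.22 on the log2 scale (adjusted p = 0.0272), a call lost after the trend with GC content and length was taken out and without either of 2 libraries. FoxK2 KD libraries were at 1452 to 1566 CPM at basal and 1375 to 1527 CPM after insulin, and DKD libraries at 1334 to 1466 and 1335 to 1419 CPM, both with overlap. The log2 fold changes of Canx in the other genotypes were -0.13, -0.09 and -0.03 (adjusted p = 0.263, 0.431 and 0.876 in Control, FoxK2 KD and DKD cells).

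The disulfide isomerases and their oxidase rose with the chaperones. Pdia4, or ERp72, was at 145, 173, 164 and 164 CPM in basal FoxK2 KD and 293, 335, 282 and 282 CPM in insulin-treated FoxK2 KD libraries. In DKD cells it went from 183, 160.3, 189 and 158 CPM to 288, 303 and 332 CPM. Basal and insulin libraries did not overlap, also in Control (142 to 164 against 228 to 266 CPM) and FoxK1 KD cells (145 to 165 against 232 to 249 CPM), and the log2 fold changes were 0.71, 0.68, 0.88 and 0.84 in that order of genotypes (largest adjusted p = 1.07e-07). Pdia6 rose by 0.45 to 0.71, P4hb by 0.39 to 0.54 and Pdia3, or ERp57, by 0.20 to 0.40 (log2). The lowest Pdia6 value, in Control cells, was 0.72 without replicate 1 of basal Control. The lowest Pdia3 value, in FoxK1 KD cells, had an adjusted p of 0.0404 and lost its call without any of 7 of its 8 libraries.

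Ero1l, which reoxidises the isomerases, was at 70.9, 68.3, 78.9 and 70.0 CPM in basal Control and 129, 114 and 117 CPM in insulin-treated Control libraries. The FoxK1 KD libraries were at 56.3, 61.1, 58.8 and 56.2 CPM at basal and 83.1, 82.1, 83.4 and 85.4 CPM after insulin. Insulin libraries of Ero1l stood above basal ones in both genotypes, and the FoxK1 KD values after insulin were all below those of Control after insulin. FoxK2 KD libraries were at 61.8 to 74.1 CPM at basal and 118 to 131 CPM after insulin, and DKD libraries at 60.6 to 77.3 and 91.3 to 106 CPM, again without overlap. The log2 fold changes were 0.74, 0.52, 0.88 and 0.51 (SE 0.08, 0.08, 0.08 and 0.09; largest adjusted p = 7e-05). Ero1lb had 2 to 28 counts per library and was called in no genotype, with a wide 95% interval of the change (-0.41 to 0.74 in Control). Ppib, the proline isomerase cyclophilin B, was called in Control (0.56) and FoxK1 KD cells (0.90), and its insulin-treated Control libraries ranged from 125 to 251 CPM. The Control call was lost without any of 4 of the 7 libraries, with values from 0.34 (without insulin replicate 3) to 0.80, and in the fit of the Control libraries alone.

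Manf and Creld2 encode proteins that are secreted under ER stress. In FoxK1 KD cells Manf went from 32.8, 42.3, 32.9 and 36.9 CPM at basal to 63.9, 66.8, 73.7 and 89.5 CPM after insulin. Creld2 went there from 12.2, 15.5, 12.9 and 13.9 CPM to 24.4, 33.2, 29.2 and 26.7 CPM. Both groups were without overlap, with log2 fold changes of 1.03 (adjusted p = 0.000743) and 1.07 (adjusted p = 5.1e-05). In Control cells edgeR called neither, with 0.23 for Manf (adjusted p = 0.488) and 0.49 for Creld2 (adjusted p = 0.0531), while limma-voom called Creld2 (0.57, adjusted p = 0.0195). There the basal libraries were at 104, 38.8, 45.9 and 53.6 CPM for Manf and 30.3, 19.0, 15.1 and 13.0 CPM for Creld2, and replicate 1 was the highest for both. Without replicate 1 of basal Control both were called higher in Control, Manf at 0.61 (adjusted p = 0.0177) and Creld2 at 0.77 (adjusted p = 0.000475).

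Of the sensors and their factors, Xbp1 alone was called higher in every genotype. It was at 103, 98.3, 102 and 109 CPM in basal Control and 167, 209 and 178 CPM in insulin-treated Control libraries. FoxK1 KD libraries were at 103, 115, 108 and 83.8 CPM at basal and 150.0, 137, 152 and 132 CPM after insulin. The groups did not overlap, and the insulin values in FoxK1 KD cells lay below all 3 of Control. FoxK2 KD libraries were at 93.2 to 99.9 CPM at basal and 163 to 198 CPM after insulin, and DKD libraries at 90.5 to 111 and 160.3 to 221 CPM. The log2 fold changes were 0.84 (SE 0.11, adjusted p = 3.18e-07), 0.48 (SE 0.10, adjusted p = 0.000513), 0.92 and 0.90 in that order of genotypes. The mRNAs of the sensors were not called higher in any genotype in the fit of all 30 samples. Their log2 fold changes were 0.04 to 0.26 for Ern1, -0.04 to 0.19 for Eif2ak3 and -0.38 to 0.08 for Atf6. Fitted on the FoxK2 KD libraries alone, Ern1 (0.26, adjusted p = 0.0357) and Eif2ak3 (0.20, adjusted p = 0.0312) were called higher after insulin. The Atf6 value of -0.38 was called, in FoxK1 KD cells (adjusted p = 0.0117), where Atf6 went from 60.9, 70.0, 67.0 and 55.9 CPM to 46.9, 54.9, 52.1 and 41.2 CPM without overlap. This call of Atf6 was lost without replicate 4 of insulin-treated FoxK1 KD (adjusted p = 0.0643). In the other genotypes its basal libraries were at 41.7 to 67.1, 53.9 to 71.0 and 45.9 to 53.9 CPM and its insulin libraries at 53.0 to 55.0, 52.5 to 57.9 and 48.8 to 54.6 CPM (Control, FoxK2 KD, DKD), all with overlap.

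Among the degradation factors, Herpud1, Syvn1 and Edem1 were raised in all 4 genotypes. Herpud1, a membrane protein of the retrotranslocation complex, was at 119 to 140.1, 88.8 to 105, 123 to 139 and 135 to 157 CPM at basal and at 139 to 184, 143 to 175, 164 to 198 and 169 to 205 CPM after insulin in that order of genotypes. It rose by 0.31 to 0.62, Syvn1, the ubiquitin ligase HRD1, by 0.32 to 0.66 and Edem1, a mannosidase-like protein that marks glycoproteins for removal, by 0.34 to 0.52 (log2). The calls of Syvn1 were lost without any of 6 of the 7 libraries in DKD and 4 of the 7 in Control cells, and those of Herpud1 without any of 3 in DKD and 1 in Control cells, while those of Edem1 were kept. Sel1l, the partner of HRD1, had values from 0.05 to 0.21 with no call. In FoxK2 KD cells it was called with the trend in GC content and length taken out (0.23) and in the fit of those libraries alone (0.22). Derl1, a derlin of the membrane channel, was called in DKD cells (0.31, adjusted p = 0.00597). Derl2, its relative, was at 183, 127, 126 and 138 CPM in basal Control and 114, 112 and 116 CPM in insulin-treated Control libraries. In DKD cells it was at 93.3, 100.1, 108 and 101 CPM at basal and 136, 126 and 125 CPM after insulin. Control libraries thus moved down and DKD libraries up without overlap, by -0.33 (adjusted p = 0.0228) and 0.36 (adjusted p = 0.0228) on the log2 scale. The DKD call was lost with the trend in GC content and length taken out (0.29) and without replicate 1 of DKD at basal or after insulin. FoxK1 KD (88.0 to 118 against 110.2 to 139 CPM) and FoxK2 KD libraries (115 to 130.4 against 111 to 132 CPM) of Derl2 overlapped, with no call. Edem2, a relative of Edem1, was called lower in Control cells (-0.41, adjusted p = 0.0376), from 82.5, 46.3, 44.9 and 45.4 CPM to 45.4, 41.7 and 34.6 CPM, with overlap. In the knockdowns its basal libraries were at 40.3 to 52.9, 48.8 to 57.0 and 50.1 to 63.2 CPM and its insulin libraries at 42.6 to 47.5, 41.9 to 51.6 and 48.6 to 50.7 CPM (FoxK1 KD, FoxK2 KD, DKD), with no call. Without replicate 1 of basal Control, which was the highest of its group for both genes, neither Derl2 (-0.20) nor Edem2 (-0.16) was called lower in Control and the count there was 21 higher and 0 lower. The share of all genes called in that fit is not given. The Control call of Derl2 was also lost without replicate 1 or 2 of insulin-treated Control. That of Edem2 was also lost without replicate 2 or 3 of insulin-treated Control and with limma-voom. Both were lost in the fit of the Control libraries alone.

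The translocon subunits admit new chains to the ER. Sec61a1, its pore, was called in 3 genotypes (0.23, 0.35 and 0.37 in Control, FoxK1 KD and FoxK2 KD cells) and was at 0.16 in DKD cells (adjusted p = 0.139). Sec61b, with 19 to 66 counts per library, was at 0.71, 1.04, 0.92 and 0.28 in the same order, and the DKD value was not called (adjusted p = 0.375).

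Many chaperone promoters carry the ER stress response element (ERSE), where ATF6 acts beside the factor NF-Y. The letters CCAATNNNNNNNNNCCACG were searched on both strands in RefSeq promoters of GRCm38.p6, 250 bases before to 50 after each start, which were matched for 25 of the 32 genes. No promoter was matched for Sec61a1, Ero1l, Manf, Derl1, Atf6, Ero1lb and Hyou1. The search did not cover every chromosome, so totals are not genome-wide. The ERSE was present in 9 of the 25, against 37 of 27025 genes in all (0.137%), these 9 among them. The 9 were Hspa5, Hsp90b1, Calr, Canx, Pdia6, Dnajc3, Creld2, Syvn1 and Derl3. ERSE-II, a related element written ATTGGNCCACG, was present in Herpud1 and Dnajb11, against 12 genes in all (0.0444%). The UPRE letters TGACGTGG, bound by XBP1, matched 0 of the 25 (0.714% of all genes) and the forkhead letters GTAAACA 0 (4.05%). The CARE letters TGATGNAA, bound by ATF4, matched Herpud1 (4.51%). A match is only a description of letters, and no match says only that these letters are not in this window.

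The stretches below are shown because their capitals mark the fixed letters of the element in genes that rose (Hspa5, Hsp90b1, Calr, Pdia6, Syvn1, Herpud1, each called in all 4 genotypes) and, for contrast, in Canx. They are written 5′ to 3′ along the gene. In Hspa5 (chr2:34772020-34772048, plus strand) the element begins 65 bases before the RefSeq start but lies inside the gene model of GENCODE M21, which begins at 34771970, so only 5 bases on each side are shown. The others hold the element with 30 bases on each side, shortened where the gene model is nearer: Hsp90b1, with 2 elements, at chr10:86705510-86705686, minus strand, Calr at chr8:84847045-84847123, minus strand, Pdia6 at chr12:17266461-17266539, plus strand, Syvn1 at chr19:6046502-6046575, plus strand, Herpud1, with ERSE-II, at chr8:94386347-94386417, plus strand and Canx at chr11:50325770-50325848, minus strand.
Hspa5: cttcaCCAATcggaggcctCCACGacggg
Hsp90b1: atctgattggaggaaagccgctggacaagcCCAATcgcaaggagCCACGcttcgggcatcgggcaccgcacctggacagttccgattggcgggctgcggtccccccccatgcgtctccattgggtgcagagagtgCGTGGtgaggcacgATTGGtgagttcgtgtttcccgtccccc
Calr: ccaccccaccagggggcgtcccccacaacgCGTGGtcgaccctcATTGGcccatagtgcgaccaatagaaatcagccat
Pdia6: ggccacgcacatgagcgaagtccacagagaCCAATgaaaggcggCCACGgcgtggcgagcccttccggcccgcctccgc
Syvn1: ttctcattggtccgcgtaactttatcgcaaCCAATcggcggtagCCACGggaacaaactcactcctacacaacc
Herpud1: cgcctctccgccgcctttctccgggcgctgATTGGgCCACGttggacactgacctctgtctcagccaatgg
Canx: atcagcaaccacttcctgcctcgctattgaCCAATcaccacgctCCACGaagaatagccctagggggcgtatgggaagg

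In Calr the element lies on the opposite strand, beginning 162 bases before the start, and in Canx on the gene's own strand 145 bases before it. Of the 10 tested genes with ERSE or ERSE-II in the window, 7 were called higher after insulin in all 4 genotypes, and Canx was called higher in none. Of the 14 tested genes whose promoter held neither, 5 were (Pdia3, Pdia4, P4hb, Xbp1 and Edem1). The median over genes of the mean log2 fold change of the 4 genotypes was 0.61 with and 0.38 without the letters, and the ranges overlapped (-0.12 to 0.98 and -0.20 to 0.85). Outside the 32 genes, 38 others had ERSE or ERSE-II letters, of which 12 were tested. Of these, Alg12, an ER mannosyltransferase, was called higher in all 4, and the median was 0.07. Of the 8704 other tested genes with a promoter and without the letters, 311 (3.57%) were called higher in all 4, with a median of -0.003. Genes described here thus stood above that share both with and without the letters. No test was made of these counts.

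The pathway around these genes moved unevenly, on lists drawn up for comparison. Of 14 genes of the PERK arm and the integrated stress response, which answers amino acid shortage as well, 7, 8, 10 and 7 were called higher after insulin in that order of genotypes. Asns, the asparagine synthetase gene and a target of ATF4, had the smallest p-value of the list in each genotype, going from 191, 171, 217 and 159 CPM to 378, 374 and 371 CPM in Control cells. Its log2 fold changes were 1.02, 1.17, 1.07 and 1.23, without overlap of basal and insulin libraries in any genotype. Trib3, a pseudokinase, rose by 1.55, 2.03, 1.53 and 1.28 in that order of genotypes. Lower calls on this list were Ppp1r15a, which encodes the phosphatase subunit GADD34, in Control (-0.42) and DKD cells (-0.71), and Cebpg in FoxK1 KD cells (-0.21).

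Ddit3 encodes CHOP, the factor tied to cell death in prolonged ER stress, and stayed low. It was at 5.7, 7.3, 10.2 and 5.0 CPM in basal Control and 7.4, 13 and 12 CPM in insulin-treated Control libraries. FoxK1 KD libraries were at 8.1, 6.6, 8.0 and 9.9 CPM at basal and 7.4, 13, 11 and 14 CPM after insulin. The basal and insulin values overlapped in both genotypes (log2 fold change 0.61, adjusted p = 0.0667, and 0.47, adjusted p = 0.125). FoxK2 KD libraries went from 4.3, 6.6, 8.4 and 6.4 CPM to 9.7, 8.8, 12 and 11 CPM, which was called (0.67, adjusted p = 0.0291), and DKD cells from 8.67 ± 2.00 (SD, n = 4) to 9.02 ± 1.76 (SD, n = 3) CPM with no call (0.09, adjusted p = 0.858).

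The other lists are to be read against all tested genes, of which 12.4%, 16.2%, 14.4% and 8.31% were called higher and 13.1%, 15.4%, 13.7% and 7.99% lower in that order of genotypes. Of 20 other folding factors tested, 4, 5, 4 and 4 were called higher and 1 lower in each genotype, among them Txndc11, higher in all 4. Of 27 other translocon, signal peptide and N-glycosylation factors, 4, 7, 9 and 9 were higher and 4, 3, 1 and 1 lower, with Rpn2, a subunit of the oligosaccharyl transferase, higher and the translocon accessory Sec62 lower in all 4. Of 20 other degradation factors, 2, 2, 3 and 0 were higher and 3, 4, 3 and 2 lower, and Erlec1, a lectin of that pathway, was lower in all 4. Of 6 other ER-bound stress factors and proteases, 0, 0, 1 and 0 were higher (Atf6b in FoxK2 KD cells) and 1, 2, 1 and 1 lower, and Mbtps2, the site-2 protease that cuts ATF6, was lower in Control, FoxK1 KD and FoxK2 KD cells. Of 12 heat shock genes of cytosol and mitochondria, 4, 2, 3 and 4 were higher, led by Hsph1, and 1 was lower in each genotype, Hsp90ab1 (-0.37, -0.23, -0.35 and -0.49).

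**Figure D3:**
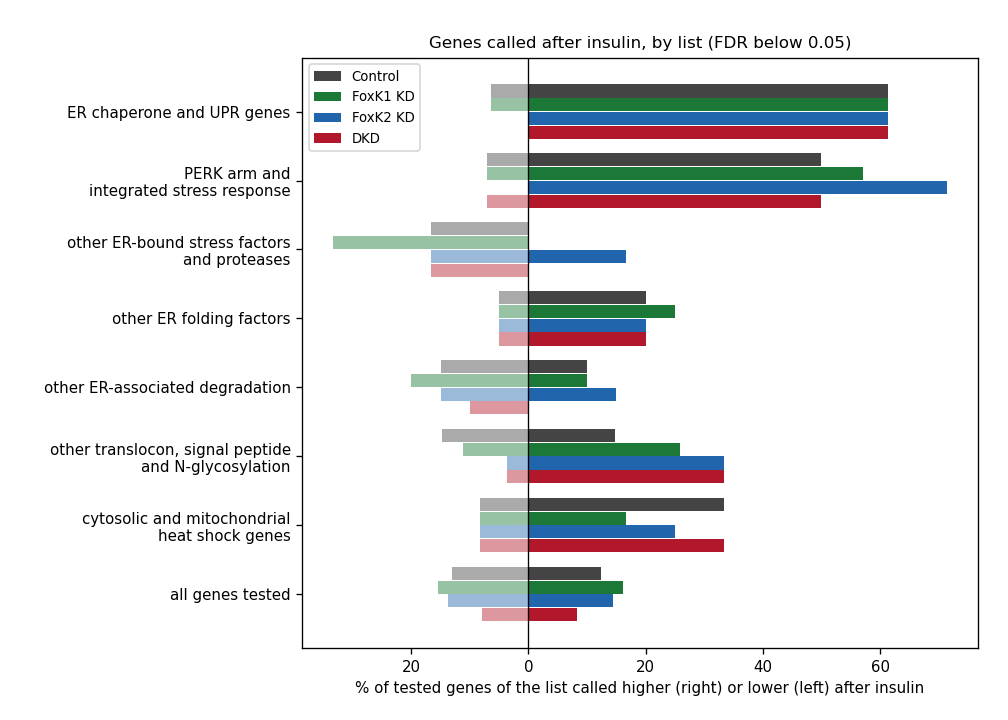
Share of the tested genes of each list (rows) called higher (bars to the right) or lower (pale bars to the left) after insulin, in percent, by genotype. The 31 ER chaperone and UPR genes have 19 called higher in each genotype, the PERK-arm list 7 to 10 of 14, and the bottom bars give all 11368 tested genes.

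The knockdowns were compared with Control at basal, with the same Control libraries in each comparison. In FoxK1 KD cells 0 of the 31 genes were called higher (all genes 3.39%) and 6 lower (4.71%), with a median log2 fold change of -0.12. The 6 were Derl2, Herpud1, Ero1l, Sec61a1, Manf and Calr. Derl2 was at 183, 127, 126 and 138 CPM in Control and 111, 118, 88.0 and 117 CPM in FoxK1 KD cells, below every Control library (log2 fold change -0.40, SE 0.10, adjusted p = 0.0104). Herpud1 was at 140.1, 122, 119 and 122 CPM and 105, 99.0, 99.5 and 88.8 CPM, also without overlap (-0.35, SE 0.09, adjusted p = 0.015). The Ero1l values given above did not overlap either (-0.31, SE 0.08, adjusted p = 0.017). Manf (-0.73) and Calr (-0.27) overlapped with Control, and Sec61a1 (-0.23) did not.

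These basal calls of FoxK1 KD cells depended on the libraries used. Replicate 1 of basal Control, apart on the second component, was the highest of its group for Calr, Manf, Herpud1, Derl2 and Sec61a1, and without it 1 of the 6 (Ero1l) was called. Without replicate 2, 3 or 4 of FoxK1 KD, 3 were called each time. The values without replicate 1 of basal Control were -0.15 for Calr, -0.36 for Manf, -0.29 for Herpud1, -0.27 for Derl2, -0.18 for Sec61a1 and -0.31 for Ero1l. The Ero1l call was lost without replicate 3 of basal Control (adjusted p = 0.0569) and with no filter beyond 1 count. Fitted on the Control and FoxK1 KD basal libraries alone, 0 were called. Chac1, Trib3, Asns, Atf3, Atf4 and Atf5 of the PERK-arm list, whose size is given above, were also called lower in these cells (all genes 4.71%). They were led by Chac1 (-1.91, adjusted p = 0.000359), a glutathione-degrading enzyme, which was at 9.6, 3.3, 6.2 and 4.5 CPM in Control and 0.7, 1.7, 1.6 and 2.1 CPM in FoxK1 KD libraries. Replicate 1 of basal Control was the highest of its group for Chac1 too, and the calls of this list without it are not given.

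In FoxK2 KD cells at basal, 0 genes were called higher (all genes 0.211%) and 0 lower (0.167%) by edgeR, DESeq2 or limma-voom, with 2 at an unadjusted p under 0.05 in edgeR (Calr and Derl2), where 11.2% of all genes were. For Hspa5 the 95% interval of the log2 fold change was -0.06 to 0.19. In DKD cells 1 was higher (all genes 10.3%) and 1 lower (10.8%). Dnajb11 was at 73.4, 61.8, 65.0 and 52.1 CPM in Control and 85.9, 86.7, 73.6 and 73.7 CPM in DKD cells, above every Control library (0.35, SE 0.10, adjusted p = 0.00959). Derl2 was below every Control library at 93.3, 100.1, 108 and 101 CPM (-0.51, SE 0.10, adjusted p = 0.000477). Without replicate 1 of basal Control 4 were called higher (Dnajb11 0.43, Edem2 0.32, Herpud1 0.27 and Pdia6 0.23). In that fit 3 were lower (Derl2 -0.39, Atf6 -0.36 and Sdf2l1 -0.49). Without replicate 4 of basal Control 0 were higher and 2 lower (Derl2 and Canx). The shares of all genes called in these fits are not given, so a higher count is no sign of more change in these genes. In this comparison the log2 fold changes of all genes followed GC content more strongly than in any other contrast (Spearman's rho 0.466 over 11346 genes). At basal rho was -0.217 for FoxK1 KD and -0.111 for FoxK2 KD. For basal DKD, taking out the trend with GC content and length gave 4 calls in place of 2.

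**Figure D4:**
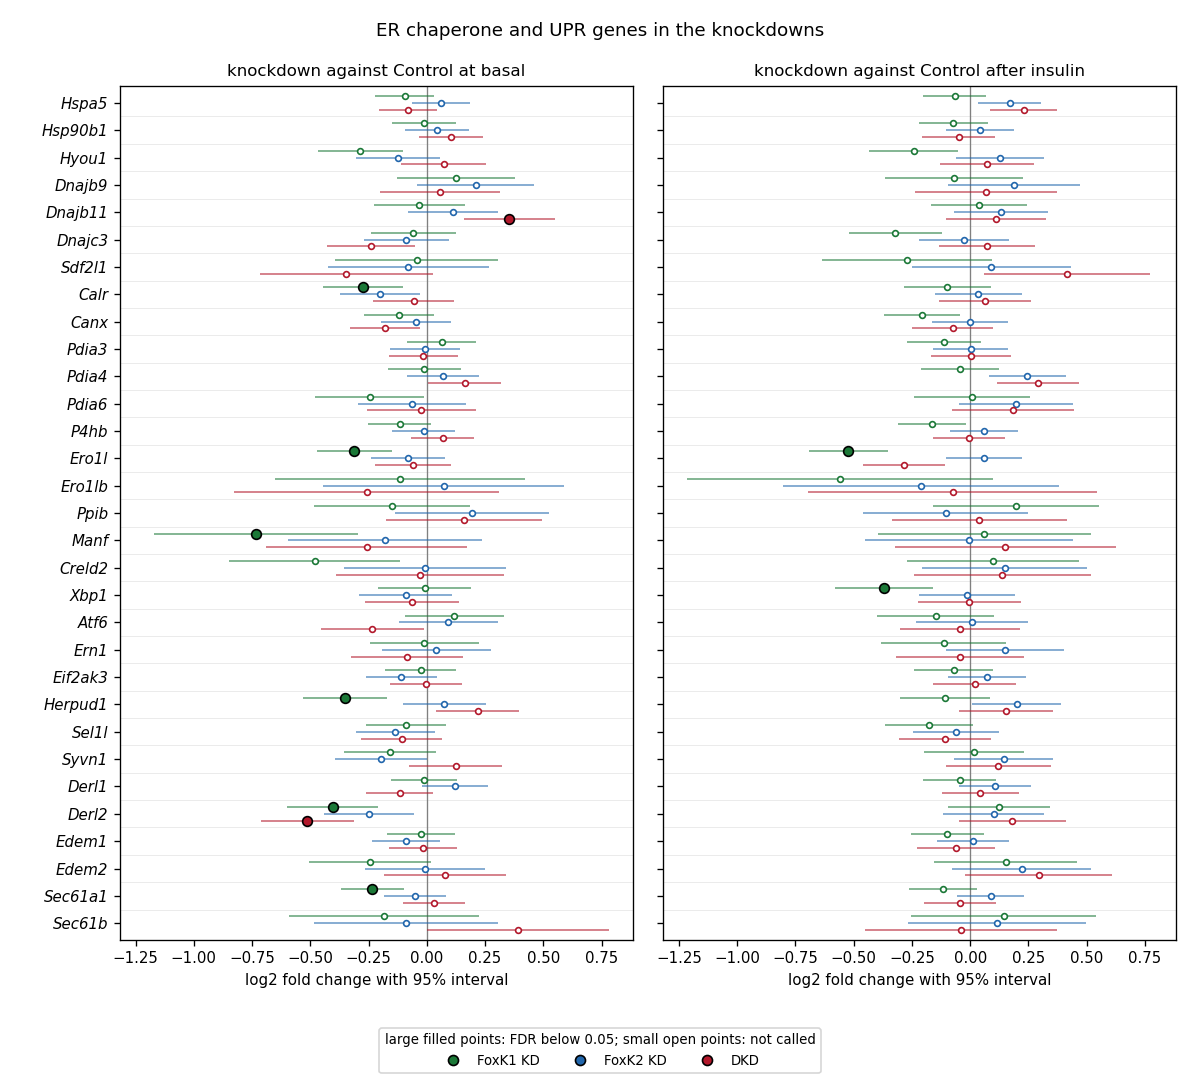
Log2 fold change (horizontal axes, bars give the 95% interval) of the 31 genes in FoxK1 KD, FoxK2 KD and DKD against Control cells, at basal (left) and after insulin (right). Large filled points were called at an adjusted p below 0.05: 6 below 0 in FoxK1 KD and 2 in DKD cells at basal, and Ero1l and Xbp1 in FoxK1 KD cells after insulin.

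After insulin, 0 genes were called higher (all genes 1.86%) and 2 lower (1.72%) in FoxK1 KD against Control cells. Ero1l was at 129, 114 and 117 CPM in Control and 83.1, 82.1, 83.4 and 85.4 CPM in FoxK1 KD cells, without overlap (log2 fold change -0.52, SE 0.09, adjusted p = 0.000264). Ero1l was thus called lower in FoxK1 KD cells in both states, in comparisons that share no library, with the losses of the basal call given above. Xbp1 also did not overlap (-0.37, SE 0.11, adjusted p = 0.0456), but its call was lost without any of 6 of the 7 libraries and with limma-voom. Dnajc3 was at 123, 97.0 and 104 CPM in Control and 75.7, 87.7, 91.0 and 92.4 CPM in FoxK1 KD cells, without overlap and without a call (-0.32, adjusted p = 0.0708).

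In FoxK2 KD cells after insulin, 0 were called higher (all genes 0.0088%) and 0 lower (0.0176%) by edgeR, DESeq2 or limma-voom, with 3 at an unadjusted p under 0.05 in edgeR (all genes 6.03%). In DKD cells 0 were higher (all genes 0.871%) and 0 lower (0.343%) in edgeR and limma-voom, 4 with an unadjusted p under 0.05 in edgeR (all genes 12.7%), and 1 (Hspa5) was called by DESeq2. Those 4, a share near that of all genes, were Pdia4 (0.29), Hspa5 (0.23), Ero1l (-0.28) and Sdf2l1 (0.41; adjusted p = 0.111, 0.126, 0.127 and 0.309). Their DKD libraries did not overlap with Control, in groups of 3 libraries each. The share of all genes without overlap is not given, so this says nothing particular about the 4.

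Whether the insulin effect differed between genotypes was tested by the difference of the effects. Over all genes these differences followed GC content too, with Spearman's rho 0.316 for FoxK1 KD, 0.235 for FoxK2 KD and -0.307 for DKD. For FoxK1 KD against Control, 0 genes were called higher (all genes 0%) and 0 lower (0%), and for FoxK2 KD likewise 0 (0%) and 0 (0%), by edgeR, DESeq2 or limma-voom. At an unadjusted p under 0.05 edgeR gave 4 genes (Manf, Creld2, Xbp1, Derl2) and 2 genes (Syvn1, Derl2), where 13.4% and 5.5% of all genes were. For Xbp1 in FoxK1 KD cells the difference was -0.36 (95% interval -0.65 to -0.07, adjusted p = 0.31), and for Hspa5 it was 0.03 (-0.16 to 0.21). For DKD 1 was called higher (all genes 1%) and 0 lower (0.537%).

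That gene was Derl2, whose insulin effect in DKD exceeded that in Control by 0.69 on the log2 scale (SE 0.16, adjusted p = 0.016). The value was 0.56 without replicate 1 of basal Control and stayed called, and the call was lost with the trend in GC content and length taken out (0.62, adjusted p = 0.0648) and in a fit of the 4 groups alone (0.69, adjusted p = 0.0801). Exons of Mis12 on the opposite strand cover 2.87% of its exon bases. Hspa5 and Sdf2l1 had differences of 0.31 (95% interval 0.12 to 0.50, adjusted p = 0.0968) and 0.76 (0.24 to 1.27, adjusted p = 0.142), not called in edgeR. DESeq2 called the Hspa5 difference (0.30, adjusted p = 0.0253), and that of Sdf2l1 was called without replicate 1 of basal Control (0.90, adjusted p = 0.0342).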

How the data were processed

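RNA was extracted from 30 samples of AML12 cells, libraries were made with a NEBNext kit and sequenced on an Illumina HiSeq. Per the labels, the authors converted the runs with CASAVA 1.8, aligned the reads with STAR 2.4.2a to GRCm38.p4 and counted them per gene with featureCounts. The deposited values are whole-number counts per Ensembl gene, not normalized, 1 table of 49089 identifiers per sample. The annotation release and the strand setting are not given in the sources used here. Of the identifiers, 48435 are in GENCODE M21 (GRCm38), from which symbols, coordinates, exon length and GC content were taken.

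Counts were analysed in R 4.3.3 with edgeR 4.0.16. All 30 samples entered 1 model with a mean for each of the 8 groups, TMM scaling and filterByExpr, and the quasi-likelihood test was adjusted by Benjamini-Hochberg over the 11368 genes that passed. The 13 contrasts were the 3 knockdowns against Control at basal and after insulin, the insulin effect in each of the 4 genotypes and its difference between each knockdown and Control. Every fitted adjusted p-value in the text is from edgeR unless another tool is named. Alternatives were DESeq2 1.42.0, limma-voom (limma 3.58.1), RLE scaling, 2 other count filters, only the groups compared, the replicate number as a block, the calling rule of the study (FDR below 0.25, with a fold change above 1.5 for insulin effects and their differences), a GC content and length correction and leaving out each sample. Principal components were taken on log2-CPM with a prior count of 2. The scripts were tested on simulated data. Tables were made with pandas 2.3.3 under Python 3.11.15 and figures with matplotlib 3.10.9.

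The members and the lists were chosen with earlier results of these data known. All 32 members were accounted for, and values in every group were given for Hspa5, Xbp1, Ddit3 and the members with the 3 smallest adjusted p-values in each direction of a contrast among those called. Other lists were given as counts with up to 3 called genes in each direction, and further genes were named after their values were seen. Replicate numbers did not pair the samples: deviations of 99 same-numbered pairs from their group means correlated at -0.0134 on average (-0.205 to 0.199), and those of 294 other pairs at 0.0043. No 2 libraries of a group agreed within sampling noise (lowest chi-square per degree of freedom 1.70 in 42 pairs). The total of 2141460 to 5668270 counts per library sets the precision, from 941 to 4226 counts per library for Hspa5 to 2 to 28 for Ero1lb.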

Additional observations from a re-analysis of the deposited data

Results flagged for a closer look

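Of 186 sets of 4 replicates (31 genes in the 6 groups of 4), 16 had a library far from the other 3 by Dixon's criterion (8.60%), where chance flags about 1 in 20. In basal Control cells, replicate 1 was the library apart for 6 genes, with Dnajb9 at 36.0 CPM, Pdia6 at 201.9 CPM, Herpud1 at 140.1 CPM, Derl1 at 171.0 CPM, Edem2 at 82.5 CPM and Sec61a1 at 389.8 CPM. In the same group, Hspa5 was apart in replicate 4, at 422.9 CPM. In FoxK1 KD cells after insulin, replicate 4 was apart for Hyou1 (306.2 CPM), Syvn1 (131.0 CPM) and Derl1 (183.0 CPM). Replicate 2 of that group was apart for Pdia3 (874.7 CPM) and Pdia4 (232.2 CPM), and replicate 3 for Herpud1 (175.3 CPM). The others were Dnajb11 in replicate 3 of FoxK2 KD cells after insulin (118.0 CPM), Sdf2l1 in replicate 4 of FoxK2 KD cells at basal (24.2 CPM) and Manf in replicate 3 of DKD cells at basal (62.5 CPM). Replicate 1 of basal Control, which also stood apart on the second principal component, enters each basal knockdown comparison and the Control insulin effect, and the counts without it stand beside those results.

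The insulin effect on Derl2 differed between DKD and Control cells by a test of the difference, 0.69 on the log2 scale, with all 3 Control insulin libraries below and all 3 DKD insulin libraries above the basal libraries of their genotype. This call was lost with the trend in GC content and length taken out (adjusted p = 0.0648) and in a fit of only the groups compared (adjusted p = 0.0801). The fall in Control by itself was not called without replicate 1 of basal Control.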

How the results depend on the processing

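Of the 91 member values called in a contrast, 0 changed direction under any alternative, and 1375 of the 1511 alternative values were still called. Of the 1511, 692 came from leaving out 1 library. By the rule of the study 55 of the 91 were still called, and 73 in fits of only the groups compared. The 91 were chosen as called in these same counts, so these shares are a description only. The calling rule of the study gave 9 members at basal in DKD, 6 and 3 after insulin in FoxK1 KD and DKD, 10, 12 and 10 for the insulin effect in Control, FoxK1 KD and DKD cells, and 2 for the difference in DKD. Shares of all genes called by this rule or under the alternatives below are not given. A higher count than in the main fit is therefore no sign of more change in these genes. Fitting only the groups compared gave 0 for FoxK1 KD and 1 for DKD at basal, 11 for the insulin effect in Control and 0 for the difference in DKD. Taking out the GC content and length trend gave 4 for DKD at basal and 0 for the difference in DKD. DESeq2 gave 1 (Hspa5) for DKD after insulin and 2 (Derl2, Hspa5) for the difference in DKD. With no filter beyond 1 count, the differences had 1 call in FoxK1 KD (Manf) and 2 in DKD cells (Derl2, Sdf2l1). Limma-voom gave 1 (Ero1l) for FoxK1 KD after insulin. The replicate block gave 1 (Ero1l) there as well and moved no other count by over 1.5 times, and 3 of 30 samples correlated best with their own number.

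Leaving out 1 library at a time gave 1 to 8 members for FoxK1 KD and 2 to 7 for DKD at basal, 1 to 2 for FoxK1 KD after insulin, 18 to 21, 19 to 21, 19 and 16 to 19 for the insulin effects (Control, then the knockdowns in the order used above), 1 to 2 for the difference in DKD and 0 for the remaining contrasts. FoxK1 KD at basal had 1 call without replicate 1 of Control and 3 without replicate 2, 3 or 4 of FoxK1 KD. The cause of these changes was not tested. Depth limits Ero1lb, Sec61b and Derl3 most.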
